A study of Homo sapiens with 6 samples.

Results

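HOX genes are the homeobox transcription factor genes that lie side by side in the clusters HOXA, HOXB, HOXC and HOXD. They were taken here as every gene whose symbol is HOX, a cluster letter and a number, which leaves out the antisense and noncoding genes of the clusters. RefSeq names 39 such genes, and 29 of them had a row among the 21519 genes of the co-culture table: 11 of 11 HOXA genes, 9 of 10 HOXB genes, 4 of 9 HOXC genes and 5 of 9 HOXD genes. The knockdown table, which lists 9450 genes that each have an m7G peak, held 12 of them, 7 in HOXA and 5 in HOXB. All 12 were also in the co-culture table. HOXB1, HOXC4, HOXC5, HOXC9, HOXC12, HOXC13, HOXD3, HOXD4, HOXD11 and HOXD12 had no row, and their expression was not analysed here.

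All 6 libraries came from DLD1, an established human colorectal cancer line, and each group held 1 library. The library S-CAFs-w13 came from DLD1 cells of WT genotype grown together with fibroblasts called S-CAFs, and the series title speaks of senescent CAFs, cancer-associated fibroblasts that have stopped dividing. The library DLD1-W13CM, also WT, was taken by elimination as the co-culture with CAFs, which its title leaves unsaid. That title does not explain the letters CM either. The remaining libraries are an input and an m7G immunoprecipitate from DLD1 cells with METTL1 knockdown by a single construct, sh2, and an input and an immunoprecipitate from control cells, sh-NT. METTL1 is the methyltransferase that writes internal 7-methylguanosine, m7G, in tRNA and other RNAs. The design text mentions replications of these lines, while the labels hold 1 input and 1 immunoprecipitate of each. With 1 library per group there was no replicate check and no test across libraries, so every difference given here is one between these libraries.

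HOX proteins bind DNA as homeodomain factors, mostly together with PBX and MEIS partners, and tell cells where along the body axis they lie. Genes at the low-numbered end of a cluster, the 3' end, act in anterior tissue, and genes at the high-numbered end act in posterior tissue; genes with the same number in different clusters are paralogs. Polycomb complexes keep the clusters silent, trithorax complexes keep them active, and retinoic acid and the CDX factors are known inducers. Adult gut epithelium and its tumours keep a partly posterior HOX pattern, and HOXB9 and HOXB13 have been studied in colorectal cancer.

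Expression was given as FPKM, in which fragment numbers are corrected for the length of the gene and the size of the library, which allows levels of genes of different length to be compared within a library. Whole reads per gene could be worked back from the deposited values, summing to 4650794 in S-CAFs-w13, 4348885 in DLD1-W13CM, 8410844 in knockdown input and 7467059 in control input. The intervals given with folds are exact 95% counting intervals from these reads, and they cover counting error only. METTL1 itself stood at 3.28 FPKM in knockdown input against 5.80 FPKM in control input, 1.77 times lower (95% counting interval 1.37 to 2.29). It stood at 1.78 FPKM in S-CAFs-w13 against 4.82 FPKM in DLD1-W13CM. Of 15 colon epithelial markers with a row in the co-culture table, 13 had a mean of 1 FPKM or more. EPCAM stood at 149 FPKM in S-CAFs-w13 and 154 FPKM in DLD1-W13CM. The differentiation markers differed in level. VIL1 was low, at 1.12 FPKM in S-CAFs-w13 and 2.1 FPKM in DLD1-W13CM. So were MUC2, at 0.203 and 0.149 FPKM, and LGALS4, at 0.122 and 0.0597 FPKM. KRT20 stood at 17.5 FPKM in S-CAFs-w13 and 17.1 FPKM in DLD1-W13CM.

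The active HOX genes of these DLD1 cells lay in HOXA and HOXB, while HOXC and HOXD were close to silent. No HOX gene with a row was listed at 0 in any library. HOXB genes made up 82.6% of the summed HOX FPKM in S-CAFs-w13 and 65.5% in DLD1-W13CM, and HOXA genes 17.0% and 32.8% of it in these same libraries. The summed level of the 4 HOXC genes was 0.685 FPKM in S-CAFs-w13 and 1.27 FPKM in DLD1-W13CM, and that of the 5 HOXD genes 1.75 and 2.95 FPKM. At or above 1 FPKM stood 19 of the 29 HOX genes in S-CAFs-w13 and 22 in DLD1-W13CM. At or above 5 FPKM stood 14 and 15, all of them in HOXA or HOXB.

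Levels were read along each active cluster. In HOXA, on the minus strand of chromosome 7, the low-numbered gene HOXA2 stood at 2.16 FPKM in S-CAFs-w13 and at 1.67 FPKM in DLD1-W13CM, and HOXA3 at 5.46 and 5.61 FPKM. The 4 posterior genes HOXA9, HOXA10, HOXA11 and HOXA13 ran from 11 to 26.5 FPKM in S-CAFs-w13 and from 8.0 to 13.5 FPKM in DLD1-W13CM. In the middle of the cluster HOXA5 and HOXA6 stood as high, at 13.5 and 12.9 FPKM in S-CAFs-w13 and 13.2 and 8.47 FPKM in DLD1-W13CM, while HOXA7 stood at 3.27 FPKM in S-CAFs-w13 and 6.87 FPKM in DLD1-W13CM. HOXB (chr17:48528526-48728750, GRCh38.p14) spans 200 kb, since HOXB13 lies far from its neighbours. Its 7 genes from HOXB3 to HOXB9 summed to 526 FPKM in S-CAFs-w13 and 159 FPKM in DLD1-W13CM. Both flanks of that block were low. HOXB2 stood at 0.551 FPKM in S-CAFs-w13 against 1.15 FPKM in DLD1-W13CM, and HOXB13 at 1.35 against 1.5 FPKM. By their mean over these libraries HOXA2 and HOXB13 were the members just above 1 FPKM, and HOXB2 and HOXD10 those just below it.

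**Figure D1:**
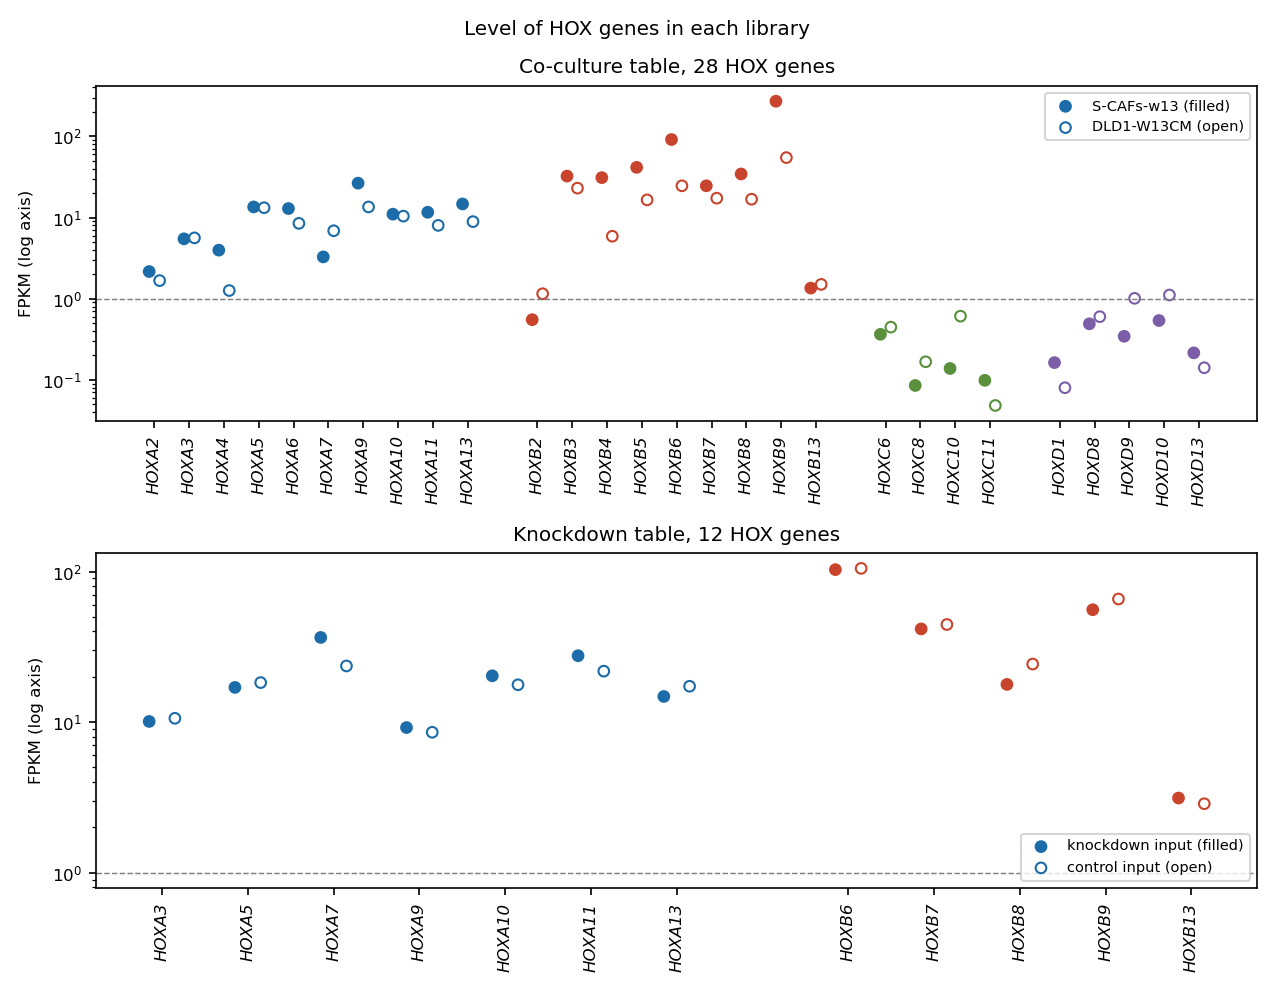
Level of HOX genes in FPKM on a log axis, by cluster and in order of number along it, with the co-culture table above and the knockdown table below. Filled points are S-CAFs-w13 or knockdown input, open points DLD1-W13CM or control input, and the dashed line is 1 FPKM. HOXB9 stands highest in the co-culture table and reaches 271 FPKM in S-CAFs-w13 and 54.7 FPKM in DLD1-W13CM, and no HOXC gene reaches 1 FPKM.

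The library S-CAFs-w13 was compared with DLD1-W13CM, which stands for growth with CAFs only by the elimination given above. HOX transcripts were more abundant in S-CAFs-w13, and most of the difference lay in HOXB. Summed over the 29 genes, HOX levels were 639 FPKM in S-CAFs-w13 and 247 FPKM in DLD1-W13CM, a ratio of 2.59. Without HOXB9 the sums were 368 and 192 FPKM, a ratio of 1.92. By cluster the ratio was 3.27 in HOXB and 1.34 in HOXA. In bulk RNA, fewer cells of a type and less RNA per cell cannot be told apart.

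A difference counted as past 2-fold when it reached 1 on the log2(FPKM + 1) scale, which understates the change of low genes, and when the gene's mean level was 1 FPKM or more. Of the 19 HOX genes with that mean, 5 were past 2-fold higher in S-CAFs-w13, against 9.08% of all genes tested, and they were HOXA4, HOXB4, HOXB5, HOXB6 and HOXB9. None was past 2-fold lower, against 7.92% of all genes. The median log2(FPKM + 1) ratio of the 19 was 0.48, against 0.02 for all 14739 genes. By FPKM, 16 of the 19 were higher and 3 lower, where 52.3% of all genes were higher. With the authors' own scaling, which lowers every log2 ratio by 0.14, 14 were higher and 5 lower, where 43.8% of all genes were higher. Over all 29 genes, the counting interval of the fold lay wholly above 1 for 12 and wholly below 1 for HOXA7 alone. Of all genes with recovered reads, 23.0% lay wholly above and 20.9% wholly below.

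Gene neighbours limit some of these values. HOXB4 lies inside the span of HOXB3, HOXB5 and HOXB6 inside that of the antisense gene HOXB-AS3, and HOXA4, HOXA5 and HOXA6 inside that of HOXA3. The sources used here do not say how shared reads were assigned or whether strand was used, so reads of such partners cannot be told apart. Among the 8 members past the filter that overlap no other RefSeq gene, only HOXB9 was past 2-fold, and their median log2 ratio was again 0.48.

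HOXB9 (chr17:48621156-48626358), a posterior factor that shares its number with HOXA9, was the most abundant HOX gene in both libraries of the co-culture table. It stood at 271 FPKM from 4340 reads in S-CAFs-w13 and at 54.7 FPKM from 895 reads in DLD1-W13CM. That is 4.94 times higher in S-CAFs-w13 (95% counting interval 4.60 to 5.32), and on the log2(FPKM + 1) scale it ranked 116 of 14739 genes from the top. It alone made up 42.4% of the summed HOX FPKM in S-CAFs-w13 and 22.2% in DLD1-W13CM. HOXB9 overlaps no other RefSeq gene.

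The genes in the middle of HOXB also differed. HOXB4, best known from blood stem cells, stood at 31.0 FPKM in S-CAFs-w13 and 5.88 FPKM in DLD1-W13CM, 5.27 times higher (4.39 to 6.36). It had the highest fold of the 19 genes past the filter. HOXB6, which lies further towards the posterior end, stood at 91.4 FPKM in S-CAFs-w13 and 24.6 FPKM in DLD1-W13CM, 3.72 times higher (3.33 to 4.16). HOXB5, a factor known in the gut's enteric nervous system, stood at 41.5 and 16.5 FPKM in S-CAFs-w13 and DLD1-W13CM, 2.52 times higher (2.14 to 2.97). HOXB8 stood at 34.4 and 16.8 FPKM in these libraries, 2.04 times higher (1.73 to 2.41), and at 0.99 on the log2(FPKM + 1) scale it fell just short of the 2-fold count. The genes between and beside them were higher by less. HOXB3 stood at 32.4 FPKM in S-CAFs-w13 and 23.0 FPKM in DLD1-W13CM, 1.41 times higher (1.30 to 1.53), and HOXB7 at 24.6 and 17.3 FPKM, 1.42 times higher (1.16 to 1.74). At the ends of the cluster the counting intervals held equal levels: the fold was 0.480 for HOXB2 (0.179 to 1.17) and 0.896 for HOXB13 (0.525 to 1.52), S-CAFs-w13 over DLD1-W13CM.

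**Figure D2:**
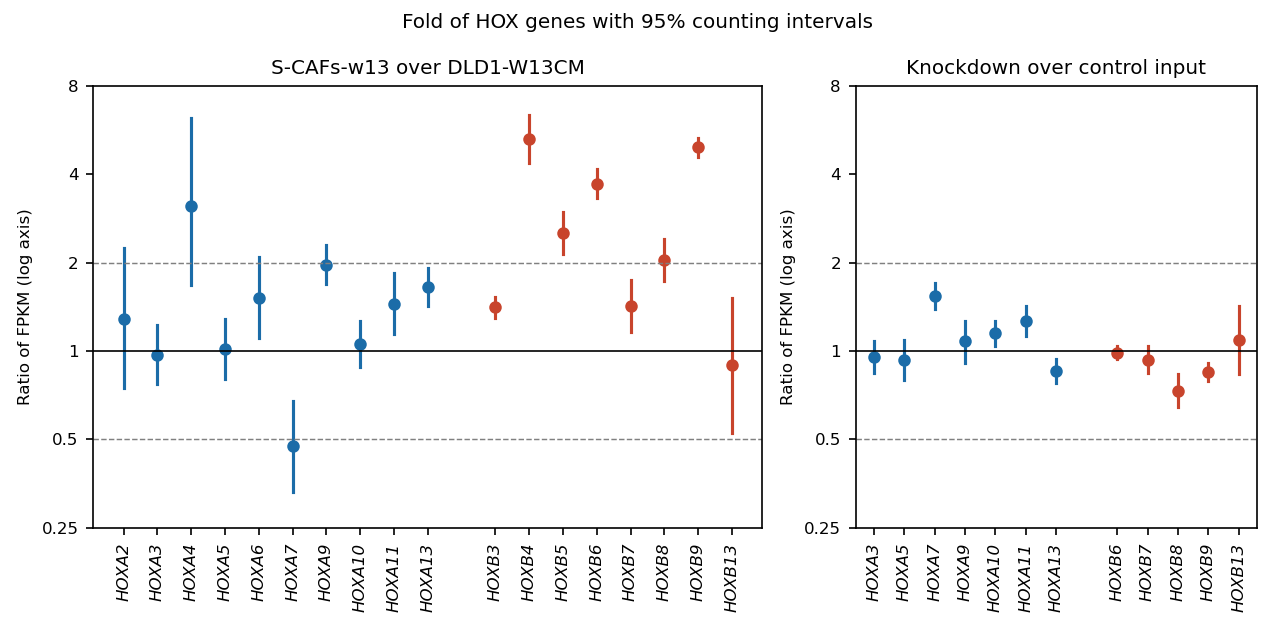
Ratio of FPKM of HOX genes on a log axis, S-CAFs-w13 over DLD1-W13CM on the left for 18 genes past the filter and knockdown over control input on the right for 12 genes. Points are ratios, bars are exact 95% counting intervals, dashed lines mark 2-fold, and colours mark HOXA (blue) and HOXB (red). HOXB4 at 5.27 and HOXB9 at 4.94 stand highest and HOXA7 at 0.476 lowest on the left, while on the right the values run between 0.732 for HOXB8 and 1.54 for HOXA7.

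HOXA genes were mixed. HOXA9, a posterior gene known as an oncogene in leukaemia, stood at 26.5 FPKM from 499 reads in S-CAFs-w13 and at 13.5 FPKM from 259 reads in DLD1-W13CM, 1.96 times higher (1.69 to 2.29). HOXA13, the last gene of the cluster and a marker of the hindgut, stood at 14.7 FPKM in S-CAFs-w13 and 8.90 FPKM in DLD1-W13CM, 1.65 times higher (1.42 to 1.92). HOXA11 stood at 11.6 and 8.0 FPKM in these libraries, 1.45 times higher (1.14 to 1.85), and HOXA6 at 12.9 and 8.47 FPKM, 1.52 times higher (1.11 to 2.1). HOXA4 was past 2-fold from few reads: 43 in S-CAFs-w13 and 14 in DLD1-W13CM, for 3.96 and 1.26 FPKM and a fold of 3.13 (1.68 to 6.20). With the authors' scaling HOXA4 fell short of 2-fold on the log2(FPKM + 1) scale, though its plain log2 fold change in the authors' deposited table is 1.5.

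HOXA7 went the other way. It stood at 3.27 FPKM from 49 reads in S-CAFs-w13 and at 6.87 FPKM from 105 reads in DLD1-W13CM, 2.1 times lower in S-CAFs-w13 (1.48 to 3.01), though at -0.88 on the log2(FPKM + 1) scale it was not past 2-fold. HOXA5, HOXA10 and HOXA3 differed little. HOXA5, a brake on stem cell traits in the colon, stood at 13.5 FPKM in S-CAFs-w13 and 13.2 FPKM in DLD1-W13CM, a fold of 1.02 (0.803 to 1.29). HOXA10 stood at 11 and 10.4 FPKM, a fold of 1.06 (0.883 to 1.27), and HOXA3 at 5.46 and 5.61 FPKM, a fold of 0.973 (0.770 to 1.23). For HOXA5 and HOXA10 the authors' scaling turned the sign of the log2 ratio. The fold of HOXA2 was 1.29 (0.751 to 2.25).

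The sequence before the start of HOXA9, HOXA7 and HOXA13 is shown because these genes lie in one cluster and had different folds. RefSeq promoter windows of 300 bases were at hand for 20 HOX genes (27 windows), HOXB9 and the other HOXB genes measured here not among them. The 250 bases before each start, read on the minus strand of GRCh38.p14, lie at chr7:27165538-27165787 for HOXA9, chr7:27156676-27156925 for HOXA7 and chr7:27200092-27200341 for HOXA13. Capitals mark matches to the motifs searched.
HOXA9: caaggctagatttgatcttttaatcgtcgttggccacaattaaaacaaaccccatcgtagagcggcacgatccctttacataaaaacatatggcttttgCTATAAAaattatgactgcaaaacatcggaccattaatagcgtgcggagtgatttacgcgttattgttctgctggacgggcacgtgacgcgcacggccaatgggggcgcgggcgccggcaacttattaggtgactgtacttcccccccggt
HOXA7: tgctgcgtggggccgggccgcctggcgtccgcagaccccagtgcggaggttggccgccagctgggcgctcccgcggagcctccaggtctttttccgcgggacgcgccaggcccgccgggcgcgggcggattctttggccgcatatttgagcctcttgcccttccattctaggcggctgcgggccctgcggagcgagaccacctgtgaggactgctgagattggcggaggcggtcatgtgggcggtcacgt
HOXA13: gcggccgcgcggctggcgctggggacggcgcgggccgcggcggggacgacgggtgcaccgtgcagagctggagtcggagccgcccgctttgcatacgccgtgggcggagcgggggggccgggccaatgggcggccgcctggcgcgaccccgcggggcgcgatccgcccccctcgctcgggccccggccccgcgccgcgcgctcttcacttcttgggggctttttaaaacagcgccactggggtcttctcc
The capitals in HOXA9 hold the letters of a TATA box, TATAAA, at position -150 from the start, which overlaps a match on the other strand to TTTATNG, the core bound by CDX and posterior HOX proteins. The HOXA7 and HOXA13 stretches held no match to these, to TGATNNAT (HOX with PBX), to TAATTA (homeodomain) or to AGGTCA (nuclear receptor). Windows of HOXA3 and HOXA10, genes with folds of 0.973 and 1.06, also held TATAAA and TTTATNG. A link between motifs and folds was not tested. The stretches held 20, 28 and 40 CpG sites for HOXA9, HOXA7 and HOXA13. Over whole windows, searched on both strands, TTTATNG was present in 25.9% of HOX windows and 9.73% of all 35116, TATAAA in 18.5% and 11.5%, TGATNNAT in 11.1% and 7.4%, TAATTA in 7.41% and 4.84%, and AGGTCA in 0% and 13.8%. Of these HOX windows 7 belong to HOXA3, HOXC4 and HOXC5 share 1 window that is counted for both, and 7 of the 20 genes had no expression row. Over the 26 distinct HOX windows the share with TTTATNG was 23.1%. The median window held 22.0 CpG sites for HOX genes and 14 for all genes.

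HOXC and HOXD genes rested on few reads. Their 9 genes ran from 0.0852 FPKM (HOXC8) to 0.538 FPKM (HOXD10) in S-CAFs-w13 and from 0.0483 FPKM (HOXC11) to 1.11 FPKM (HOXD10) in DLD1-W13CM. HOXD10 had 9 reads in S-CAFs-w13 and 19 in DLD1-W13CM, HOXD9 4 and 12, and HOXC10 2 and 9. All 9 counting intervals held equal levels. The interval of the HOXC10 fold ran from 0.0238 to 1.09, and the adjusted p of HOXC10 in the authors' deposited table is 0.0494. By summed reads HOXC had 13 in S-CAFs-w13 and 22 in DLD1-W13CM, and HOXD 26 and 44.

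Read across the clusters by number, the paralogs with the numbers 4, 6 and 9 differed most. The summed level of HOXA9, HOXB9 and HOXD9 was 297 FPKM in S-CAFs-w13 and 69.2 FPKM in DLD1-W13CM, a ratio of 4.30. That of HOXA4 and HOXB4 was 34.9 and 7.14 FPKM, a ratio of 4.89, and that of HOXA6, HOXB6 and HOXC6 105 and 33.5 FPKM, a ratio of 3.12. Summed levels of the numbers 2 and 10 differed little, with ratios of 0.962 and 0.963. Paralogs of one number did not move alike: HOXA7 was 2.1 times lower in S-CAFs-w13, while HOXB7 was 1.42 times higher, and their sum had a ratio of 1.15.

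**Figure D3:**
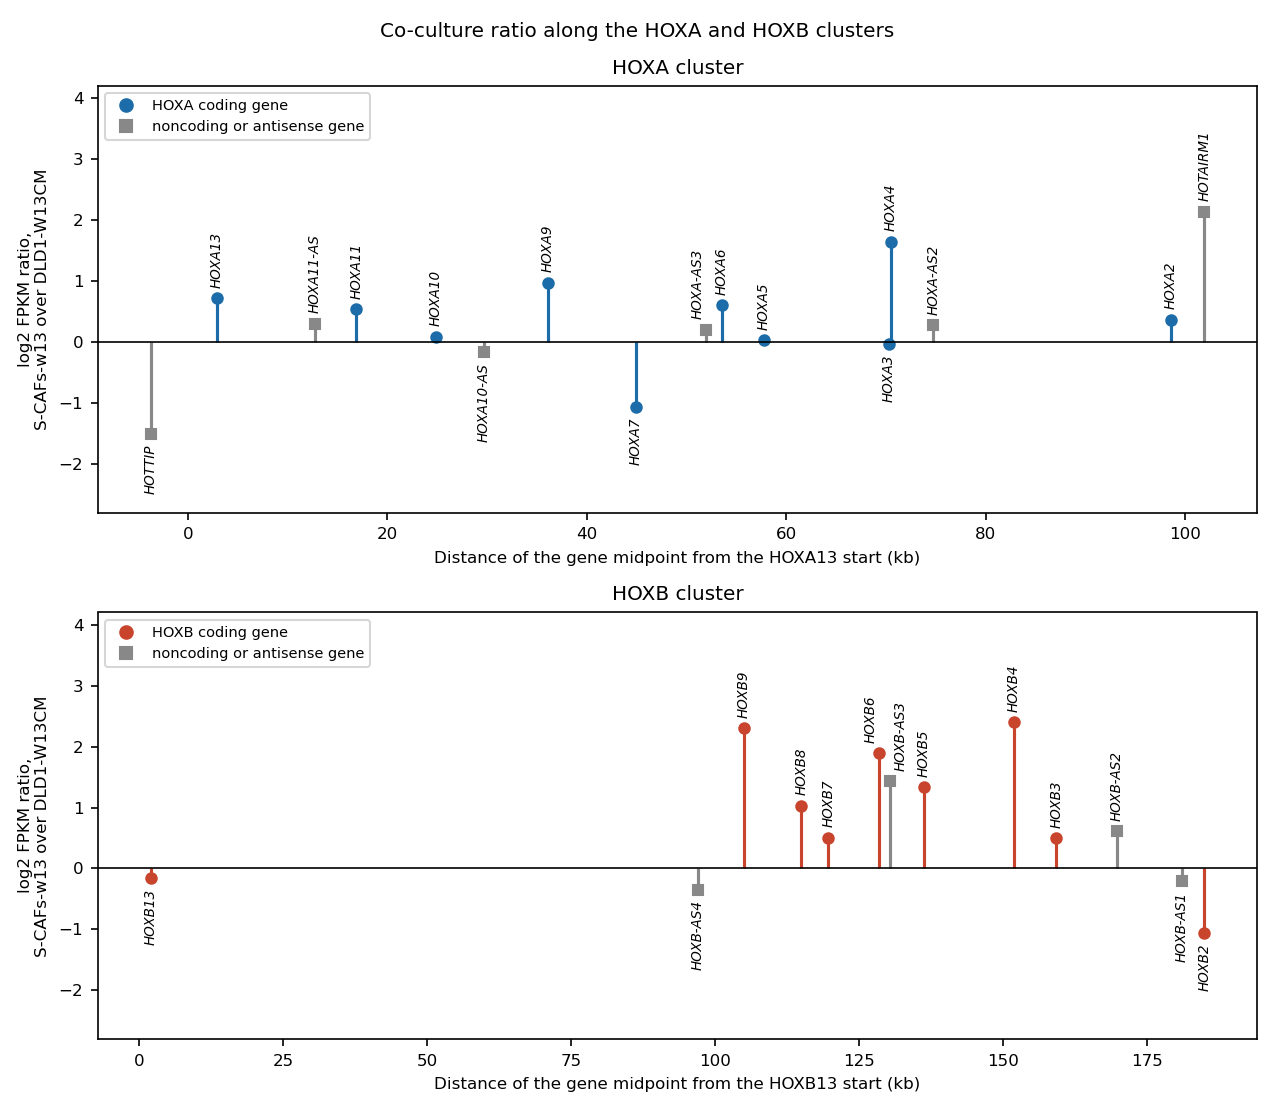
Log2 of the FPKM ratio of S-CAFs-w13 over DLD1-W13CM for genes of HOXA (above) and HOXB (below), at the distance of its midpoint from the HOXA13 or HOXB13 start in kb. Circles are coding HOX genes and grey squares noncoding or antisense genes of the cluster, among them genes under the 1 FPKM filter. HOXB3 to HOXB9 all lie above 0, HOTAIRM1 and HOTTIP lie near opposite ends of HOXA with folds of 4.4 and 0.352, and HOXA7 lies below 0 between HOXA6 and HOXA9.

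Noncoding genes of the clusters were counted the same way. Of 27 symbols listed, 12 had a row and 11 passed the filter. The list also held the readthrough gene HOXA10-HOXA9 and the HOXB13 neighbours PRAC1 and PRAC2, none of them with a row. Of the 11 past the filter, 2 were past 2-fold higher in S-CAFs-w13 and 1 lower, beside 9.08% and 7.92% of all genes. HOTAIRM1, a noncoding RNA known to be induced by retinoic acid, stood at 7.42 FPKM in S-CAFs-w13 and 1.69 FPKM in DLD1-W13CM, 4.4 times higher (2.53 to 8.12). HOTTIP, which starts 329 bases from HOXA13 on the opposite strand and is known to recruit trithorax complexes to posterior HOXA genes, stood at 1.25 FPKM from 39 reads in S-CAFs-w13 and at 3.55 FPKM from 113 reads in DLD1-W13CM, 2.84 times lower (1.96 to 4.2). HOTTIP was thus lower while its neighbour HOXA13, whose upstream stretch is printed above, was higher. HOXB-AS3 stood at 111 and 41.3 FPKM in S-CAFs-w13 and DLD1-W13CM, 2.69 times higher (2.42 to 2.99), and overlaps HOXB5 and HOXB6. The 9 others with a row ran from 0.398 (HAGLR, in HOXD) to 1.53 (HOXB-AS2) as folds. EVX1, the homeobox gene beyond HOXA13, was low: 0.240 FPKM from 5 reads in S-CAFs-w13 and 1.22 FPKM from 26 reads in DLD1-W13CM, a fold of 0.196 (0.0588 to 0.519).

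Genes that act with or on HOX genes were counted in lists, and their members differed in both directions. Over the lists, among genes past the filter and on the log2(FPKM + 1) scale, the genes furthest apart between these libraries were HOTAIRM1 and SOX9 on the higher side and CDX2 and MLLT1 on the lower. CDX2, the intestinal homeobox factor that induces HOX genes in the embryo, stood at 6.83 FPKM in S-CAFs-w13 and 19.0 FPKM in DLD1-W13CM, 2.78 times lower (2.33 to 3.32). SOX9, a factor of colon crypt cells, stood at 189 and 60.2 FPKM in these libraries, 3.14 times higher (2.96 to 3.33). MLLT1, a subunit of the super elongation complex, stood at 7.26 and 16.0 FPKM, 2.21 times lower (1.88 to 2.61). Among 8 ParaHox and hindgut factors past the filter, 2 were past 2-fold higher (SOX9 and FOXA2) and 1 lower (CDX2), beside 9.08% and 7.92% of all genes.

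All 29 Polycomb genes listed passed the filter, and 4 were past 2-fold higher in S-CAFs-w13 (CBX8, EZH1, PHF1 and RYBP) and 0 lower. The shares of all genes past 2-fold, 9.08% higher and 7.92% lower, are the background of these and the following list counts. EZH2, the main H3K27 methyltransferase of dividing cells, stood at 7.04 FPKM in S-CAFs-w13 and 12.8 FPKM in DLD1-W13CM, while its relative EZH1 stood at 5.57 and 1.81 FPKM. Of 21 trithorax and H3K27 demethylase genes, 1 was past 2-fold higher and 1 lower. The higher one was KDM6B, an H3K27 demethylase, at 14.9 FPKM in S-CAFs-w13 and 6.54 FPKM in DLD1-W13CM. Of 10 retinoic acid pathway genes past the filter, 1 was past 2-fold higher and 0 lower. This was CRABP2, a carrier of retinoic acid, at 14.9 and 6.88 FPKM. By FPKM 9 of the 10 were higher, where 52.3% of all genes past the filter were, or 43.8% with the authors' scaling. Of the 4 cofactor genes of the TALE class (PBX, MEIS, PKNOX and TGIF) past the filter, TGIF1 was past 2-fold higher, at 25.5 FPKM in S-CAFs-w13 and 9.92 FPKM in DLD1-W13CM. The median log2(FPKM + 1) ratio was 0.24 for the Polycomb list, 0.18 for the trithorax list, 0.64 for the retinoic acid list and 0.77 for the cofactors, beside 0.02 for all genes.

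Fibroblast markers were low in both libraries of the co-culture table. Of 25 fibroblast markers listed, 14 had a row, and their summed level was 15.3 FPKM in S-CAFs-w13 and 12.2 FPKM in DLD1-W13CM. S100A4 held the largest part of these sums, at 7.53 FPKM in S-CAFs-w13 and 4.77 FPKM in DLD1-W13CM. In each library 11 of the 14 were under 1 FPKM, and none was listed at 0. COL1A1 stood at 0.229 FPKM from 14 reads in S-CAFs-w13 and at 0.0482 FPKM from 3 reads in DLD1-W13CM, and PDGFRB at 0.564 FPKM from 25 reads against 0.0221 FPKM from 1 read. FN1 went the other way, at 1.71 FPKM from 184 reads in S-CAFs-w13 and 3.12 FPKM from 342 reads in DLD1-W13CM. By FPKM, with no filter, 11 of the 14 were higher in S-CAFs-w13 and 3 lower. The share of all genes higher with no filter was not counted. Several of the 14 rest on few reads, such as COL6A3 with 6 in each library. Of the 3 markers past the filter, 1 was higher and 2 lower, where 52.3% of all genes past the filter were higher. The part of fibroblast RNA in the HOX result was not tested. Summed levels of the 15 colon epithelial markers with a row were 3332 FPKM in S-CAFs-w13 and 2159 FPKM in DLD1-W13CM. Most of these sums came from KRT18, at 1593 and 892 FPKM, and KRT8, at 1051 and 754 FPKM. Of the 13 epithelial markers past the filter, 9 were higher in S-CAFs-w13 and 4 lower, where 52.3% of all genes past the filter were higher.

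The knockdown comparison asks what METTL1 knockdown does in DLD1 cells. The 12 HOX genes of that table differed by less than 2-fold. Of the 12, 0 were past 2-fold higher, against 0.429% of all 8400 genes past the filter, and 0 were past 2-fold lower, against 0.560%. Their summed level was 357 FPKM in knockdown input and 360 FPKM in control input, a ratio of 0.992. Their median log2(FPKM + 1) ratio was -0.04, against 0.01 for all genes. The counting interval lay wholly above 1 for 3 genes, all HOXA, and wholly below 1 for 3, where 24.2% and 22.6% of all genes did so.

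HOXA genes summed to 136 FPKM in knockdown input and 118 FPKM in control input, a ratio of 1.15, and HOXB genes to 222 and 242 FPKM, a ratio of 0.916. HOXA7, the gene that was lower in S-CAFs-w13, was the HOX gene furthest up here: 36.5 FPKM from 1023 reads in knockdown input against 23.6 FPKM from 596 reads in control input, 1.54 times higher (1.39 to 1.71). HOXA11 stood at 27.6 FPKM in knockdown input and 21.8 FPKM in control input, 1.27 times higher (1.13 to 1.42), and HOXA10 at 20.3 and 17.7 FPKM, 1.15 times higher (1.04 to 1.27). HOXA13 was lower, at 14.8 FPKM in knockdown input and 17.3 FPKM in control input, 1.17 times (1.06 to 1.28). The posterior HOXA genes thus did not move as a block.

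HOXB8 was the HOX gene furthest down, at 17.8 FPKM from 425 reads in knockdown input and 24.3 FPKM from 522 reads in control input, 1.37 times lower (1.2 to 1.56). HOXB9 stood at 55.8 FPKM in knockdown input and 65.7 FPKM in control input, 1.18 times lower (1.1 to 1.26). HOXB6 was the most abundant HOX gene of this table, where HOXB4 and HOXB5 had no row, at 103 and 105 FPKM in knockdown and control input, a fold of 0.988 (0.939 to 1.04). The fold intervals of HOXA3, HOXA5, HOXA9, HOXB7 and HOXB13 also held 1. HOXA3 stood at 10.1 FPKM in knockdown input and 10.6 FPKM in control input, HOXA5 at 17.0 and 18.3 FPKM, and HOXA9 at 9.20 and 8.56 FPKM. HOXB7 stood at 41.6 and 44.5 FPKM, and HOXB13 at 3.13 and 2.87 FPKM.

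The 5 noncoding HOX genes with a row in the knockdown table, 4 of them past the filter, differed by less than 2-fold too. HOTTIP stood at 5.78 FPKM in knockdown input and 5.89 FPKM in control input, a fold of 0.981 (0.838 to 1.15), and HOTAIRM1 at 2.47 and 2.05 FPKM, a fold of 1.21 (0.747 to 1.97). Past the filter were 3 genes of the cofactor list, 7 hindgut, 22 Polycomb, 19 trithorax and 6 retinoic acid genes. No gene of these lists was past 2-fold on the log2(FPKM + 1) scale, beside 0.429% higher and 0.560% lower of all genes. The genes of these lists furthest down were EVX1, at 2.41 FPKM in knockdown input and 4.99 FPKM in control input, 2.07 times lower (1.6 to 2.69), and PCGF5, a Polycomb subunit, at 2.63 and 4.83 FPKM, 1.83 times lower (1.57 to 2.15). Furthest up were RDH10, an enzyme of retinoic acid synthesis, at 7.16 and 3.76 FPKM, 1.91 times higher (1.61 to 2.26), and RARG, a retinoic acid receptor, at 16.9 and 10.2 FPKM, 1.66 times higher (1.49 to 1.84). CDX2 stood at 43.8 FPKM in knockdown input and 48.8 FPKM in control input.

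Each gene of the knockdown table has 1 m7G peak in the authors' deposited table, with a fold enrichment of immunoprecipitate over input. Of the 12 HOX peaks, 8 were classed in coding sequence, against 29.5% of all peaks, and 3 in the 5' UTR, against 49.5%. The 3 were those of HOXA7, HOXA10 and HOXB13. HOXA3 had its peak in the exon class, which holds 18.6% of all peaks, and 0 lay in the 3' UTR, against 2.06%. By the authors' deposited table, the median enrichment was 5.20-fold for HOX peaks, against 12.4 for all 9450 peaks, and that of the 8 in coding sequence was 3.90, against 9.93 for all peaks of that class.

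Within HOX genes the highest fold enrichments in the authors' deposited table were 14.7 for HOXA11, 11.5 for HOXA9, 9.93 for HOXA7 and 8.90 for HOXA13. The HOXA7 value is weakly backed, since among HOX peaks only that of HOXB7 had a higher FDR of enrichment there. The 5 HOXB peaks had 5.96 for HOXB13, 4.30 for HOXB7, 3.50 for HOXB9, 2.83 for HOXB8 and 1.86 for HOXB6. The other HOXA peaks fell within the HOXB range, with 5.86 for HOXA3, 4.54 for HOXA10 and 1.99 for HOXA5. The 4 highest enrichments were thus all in HOXA, while HOXB6, the most abundant HOX transcript of the table, had the lowest. The overlap with HOXB-AS3 given above limits both HOXB6 values.

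The direction of the deposited m7G change is not stated, and it was read here as knockdown over control. By the authors' deposited values 1 of 12 HOX peaks had an FDR under 0.05, against 5.25% of all peaks, and it was that of HOXB6. This peak lies at chr17:48596379-48596559 in coding sequence, covers 181 bases and had a log2 m7G change of 0.521 with an FDR of 0.0347. The peak also lies within the span of the antisense gene HOXB-AS3. Which transcript carried it cannot be told apart if strand was not used. The p-value and FDR of the peak come from the authors' deposited table, with 1 immunoprecipitate per line. By an unadjusted p-value under 0.05 the count was also 1, against 16.1% of all peaks. Of the 12 peaks, 5 had a positive and 7 a negative change in the authors' deposited table, from -1.54 for HOXB13 to 0.679 for HOXA5. Over all peaks 4737 were positive and 4597 negative. HOXA7, with more transcript in knockdown input, had a change of -1.0 there with an FDR of 0.676.

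**Figure D4:**
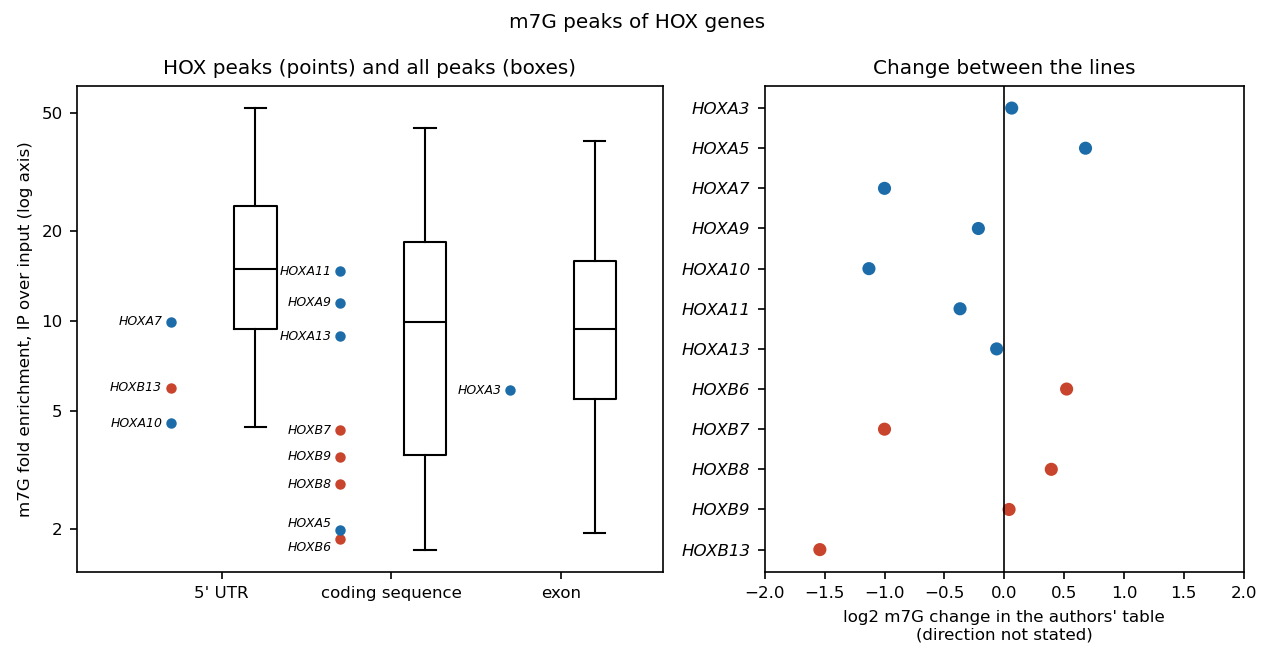
Left, fold enrichment of m7G peaks on a log axis in the authors' table, with HOX peaks as points (blue HOXA, red HOXB) beside boxes for all peaks of the class (median, quartiles and 5th to 95th percentile). Right, the log2 m7G change of each HOX peak, whose direction the table does not state. The HOXB points stand at or under 5.96, and HOXB6 at 0.521 is the one with an FDR under 0.05.

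Some HOX peaks reached past the RefSeq gene. The HOXA9 peak (chr7:27165210-27170497) has 4 blocks that add up to 810 bases, and its far edge lies at position -4960 from the RefSeq HOXA9 start, within the readthrough gene HOXA10-HOXA9. On the opposite strand HOXA10-AS has a peak of 562 bases, and 422 bases are shared by both. The authors' deposited table gives an enrichment of 11.5 to the HOXA9 peak and of 10.5 to the HOXA10-AS peak, and which transcript carried the shared part cannot be told apart if strand was not used. The HOXB13 peak lies wholly outside its RefSeq gene, 128 bases upstream of the start, and is the 1 HOX peak of 12 with no overlap. Over all genes matched by symbol, 98.7% of peaks overlapped their GRCh38.p14 gene.

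The shared part of the HOXA9 and HOXA10-AS peaks holds the whole 84-base hairpin of MIR196B, a microRNA of the HOXA cluster. Its mature sequence is printed because it lies within a HOX peak, beside those of the cluster microRNAs miR-196a and miR-10a, from RefSeq on GRCh38.p14. Capitals mark the seed, bases 2 to 8.
hsa-miR-196b-5p: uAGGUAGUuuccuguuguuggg
hsa-miR-196a-5p: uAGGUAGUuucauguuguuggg
hsa-miR-10a-5p: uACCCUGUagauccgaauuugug
miR-196b (chr7:27169528-27169549) and miR-196a, which is made from HOXB and HOXC loci, share the seed AGGUAGU and are known to target HOX transcripts, HOXB8 among them. miR-10a (chr17:48579904-48579926) lies near HOXB4, within the span of HOXB3, and has another seed. Of their genes, MIR196A1 had a row in the co-culture table, at 6.90 FPKM from 3 reads in S-CAFs-w13 and 9.02 FPKM from 4 reads in DLD1-W13CM. That depth allows no comparison, since the counting interval of the fold ran from 0.112 to 4.52, and libraries of this kind do not measure mature microRNAs.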

How the data were processed

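Expression of HOX genes was measured in 4 libraries of DLD1 cells and m7G peaks in input and immunoprecipitate libraries of knockdown and control cells, with 1 library per group. FPKM values, log2 fold changes, p-values and adjusted p-values per gene were deposited by the authors, per the file headers; FPKM of the knockdown inputs was inferred from the values. For each peak the authors deposited a fold enrichment ratio, a log2 m7G change and log10 scores of its p-value and FDR. Named with no role in the submitters' processing notes are featureCounts 1.6.3, HISAT2 2.1.0, cutadapt 2.5, SAMtools 1.10, HOMER 4.10.4 and DESeq2. The sources used here give no m7G peak caller.

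HOX members, gene lists and measures were chosen with earlier results of these data known. FPKM ratios within a table were ratios of whole numbers times a constant (relative tolerance 1e-13), and the deposited p-values followed from counting error alone, which fixes the common multiple. Reads came out whole, within 0.1, for 20756 of 20757 usable genes in the co-culture table and 9332 of 9333 in the knockdown table, and gene lengths agreed for 9151 of 9152 genes in both. For HOXB9, whose co-culture p-value is given as 0, reads came from its length in the knockdown table. The recovery was tested on simulated data. Their p-values were built by the same rule, so that test cannot show that the deposited p-values follow it. Read sums are lower bounds of depth. Folds are FPKM ratios with exact (Clopper-Pearson) 95% intervals, PCR copies not being independent molecules. Peak starts were changed to count from 1. The values of 1 member are not reported here; it is part of the counts and sums. Named in full were HOX genes at 5 FPKM or more, past 2-fold, with an m7G peak, or next to 1 FPKM by their mean. Python 3.11.15, pandas 2.3.3, SciPy 1.17.1 and matplotlib 3.10.9 were used. Settings varied were the pseudocount (0.1 FPKM in place of 1), the filter, the scaling, the FPKM level counted, the m7G threshold and, chosen after seeing the data, the overlapping genes and HOXB9.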

Additional observations from a re-analysis of the deposited data

How the results depend on the processing

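In the co-culture comparison the number of HOX genes past 2-fold higher, 5 as reported, lay between 4 and 6 under every planned setting, and it was 1 without members that overlap another RefSeq gene. The number past 2-fold lower was 1 (HOXA7) in place of 0 with a pseudocount of 0.1 FPKM, with the authors' scaling and when rescaled without mitochondrial genes. The median log2 ratio of 0.48 was 0.53 with that pseudocount, 0.11 with no filter, 0.55 with a filter of 5 FPKM, 0.34 with the authors' scaling and 0.28 rescaled without mitochondrial genes. These scalings put the median of all genes at -0.12 and -0.16 in place of 0.02. They also turned the split of all genes past 2-fold, 1338 higher and 1167 lower as reported, to 988 and 1545 with the authors' scaling and 839 and 1567 without mitochondrial genes. The ratio of summed HOX levels, 2.59, was 1.92 without HOXB9. In the knockdown comparison no HOX gene was past 2-fold under any setting tried, and the median of -0.04 was -0.06 with a filter of 5 FPKM and -0.05 with the authors' scaling. Read as control over knockdown, the m7G change of the HOXB6 peak is -0.521. The number of HOX peaks past the m7G threshold was 1 by p-value too. The causes were not tested. No paired analysis was possible because each group held 1 library. Depth limits HOXC and HOXD, where each gene had at most 19 reads in a library.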

Other observations

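Homeobox genes of some other families outside the HOX clusters, a list chosen after the data were seen, were counted in the co-culture comparison too. This list left out CDX2, past 2-fold lower in S-CAFs-w13, and TGIF1, past 2-fold higher, both given above. Of 13 listed genes at a mean level of 1 FPKM or more, 0 were past 2-fold in either direction, beside 9.08% higher and 7.92% lower of all genes. The difference from HOX genes was not tested. Their median log2(FPKM + 1) ratio was -0.10. The highest fold was that of DLX4, at 2.78 FPKM in S-CAFs-w13 and 1.17 FPKM in DLD1-W13CM, 2.38 times higher (95% counting interval 1.49 to 3.89). OTX1 stood at 5.16 and 2.29 FPKM in these libraries, 2.26 times higher (1.69 to 3.04). HHEX was lower, at 1.02 FPKM in S-CAFs-w13 and 1.94 FPKM in DLD1-W13CM, 1.90 times (1.01 to 3.72).

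In the knockdown comparison 1 of 12 such genes was past 2-fold, higher, beside 0.429% higher and 0.560% lower of all genes. MSX1, a target of BMP signalling, stood at 10.1 FPKM from 249 reads in knockdown input and at 2.98 FPKM from 66 reads in control input, 3.39 times higher (2.58 to 4.52). LHX4 stood at 3.32 FPKM in knockdown input and 1.44 FPKM in control input, 2.31 times higher (1.81 to 2.98). In the co-culture table MSX1 stood at 2.58 FPKM in S-CAFs-w13 and 3.13 FPKM in DLD1-W13CM, a fold of 0.825 (0.509 to 1.33).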
